A study of Danio rerio with 9 samples.

Results

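The genes described here were the Hox genes of paralog groups 1 and 2 on a zebrafish microarray: hoxb1a, hoxa1a and hoxc1a of group 1, and hoxa2b and hoxb2a of group 2. They were taken by gene symbol from the platform's probe annotation, updated through Entrez gene identifiers, and made up 5 of the 5355 genes with a name on the array. Each was represented by 1 probe, so no second probe of a gene was available to set beside it. A probe of hoxb1b, the other group 1 gene of the zebrafish hindbrain, was not analysed here.

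RNA came from the hindbrain of zebrafish embryos aged 19 to 20 hours post fertilization. All 3 groups shared this stage and the strain, an islet-1 GFP transgenic line in which cranial motor neurons carry a fluorescent reporter. Normal r4 was tissue around rhombomere 4, a segment of the developing hindbrain, from embryos that the labels call untreated. Hoxb1a-deficient r4 was the same tissue from embryos injected with a morpholino, an antisense oligomer, against hoxb1a. Normal r2 was tissue around rhombomere 2, likewise of untreated embryos, which the study used as a further source of tissue without Hoxb1a. Each group held 3 samples, each a pool of 8 to 10 embryos, and each sample was amplified and hybridized to its own array. Trypsin at 0.025% is listed for every sample of the 3 groups. The sections were thick slices through the embryo's hindbrain level and were not sorted, so they could carry neighbouring segments and the tissues beside them. The sources used here do not state whether the morpholino acts on translation or on splicing. The arrays belonged to 3 experiments: the first compared only the r4 tissues, with 1 sample of each, experiment 2 added 1 r2 sample, and experiment 3 added 2, named 3a and 3b.

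Hox genes encode homeodomain transcription factors that give segments along the body axis their identity, and groups 1 and 2 are the ones with the most anterior expression in the hindbrain. Hoxb1 marks rhombomere 4, where it specifies the facial motor neurons, and in the mouse it binds its own r4 enhancer together with Pbx proteins and so maintains its own transcription. Hoxa2 reaches further forward, into rhombomere 2, and also patterns the neural crest of the second pharyngeal arch, while Hoxb2 is expressed from rhombomere 3 backwards with a strong domain in rhombomere 4 that in the mouse depends on Hoxb1.

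Values are given as multiples of the array median, the scale on which the authors deposited them. A probe below 1 lay among the dimmer 50% of the array's probes, where no background level was used that would separate signal from noise. Levels of different probes were not read as relative amounts of transcript, since probes differ in brightness. Ratios of 2 probes were taken only to compare the same ratio between tissues. A summed level of a marker list weighs its brightest probes most. The upper quartile of the arrays was 6.15 to 6.87 in experiment 1 and 3.64 to 4.75 in the other 2 experiments, and the lower quartile was 0.447 to 0.506 in experiment 1 and 0.639 to 0.759 in the others, so the spread of values differed by experiment. Of the hindbrain neural markers, 20 of 23 were on the array and 14 of these lay above the median on every array, with summed levels of 472 to 573 in normal r4, 415 to 547 in Hoxb1a-deficient r4 and 467 to 527 in normal r2.

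The gene targeted by the morpholino, hoxb1a, was measured at 3.02, 2.42 and 1.88 in normal r4 in experiments 1, 2 and 3. In Hoxb1a-deficient r4 of the same experiments it was measured at 3.17, 1.52 and 1.51. In normal r2 it was measured at 0.774 in experiment 2 and at 0.590 and 0.567 in samples 3a and 3b of experiment 3. The 6 r4 arrays of both kinds all lay above the array median, the 3 r2 arrays all lay below it, and the ranges of normal and Hoxb1a-deficient r4 overlapped. Ranked within its array, the hoxb1a probe stood at the 64.2 to 70.2 percentile in normal r4, at the 61.2 to 67.3 percentile in Hoxb1a-deficient r4 and at the 5.43 to 28.6 percentile in r2. The group mean was 2.44 ± 0.571 (SD, n = 3) for normal r4, 2.07 ± 0.959 (SD, n = 3) for Hoxb1a-deficient r4 and 0.644 ± 0.113 (SD, n = 3) for r2.

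**Figure D1:**
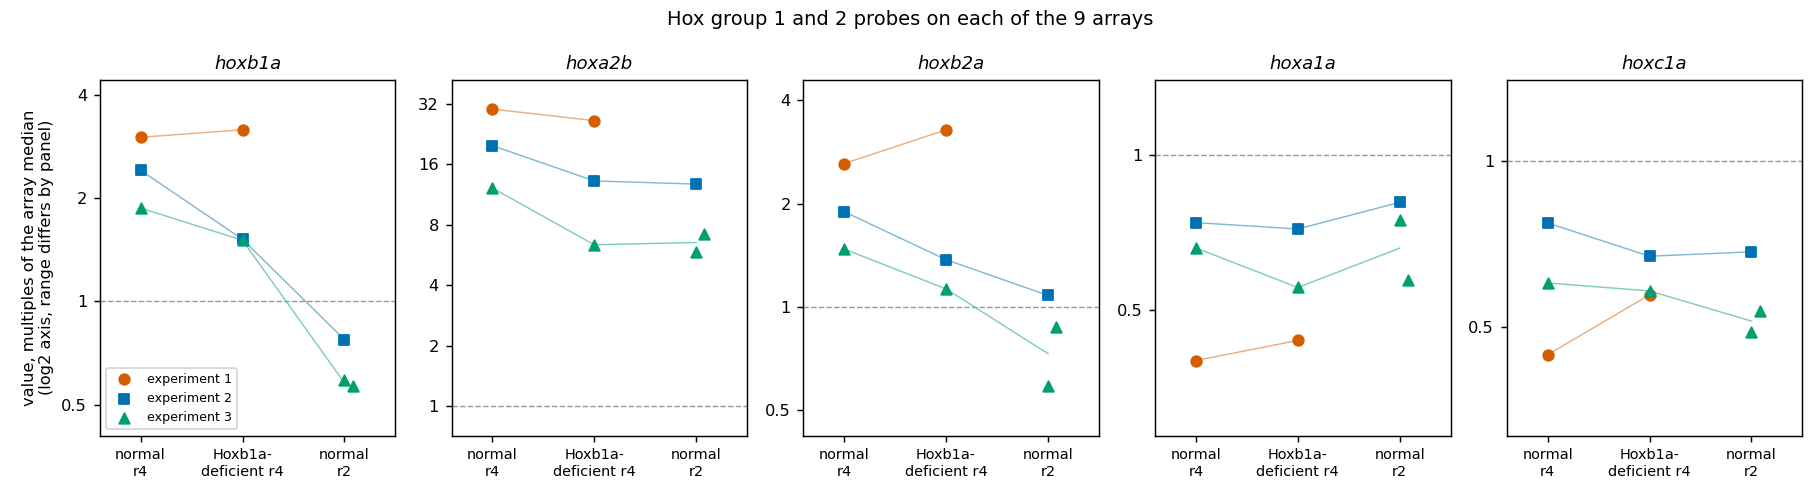
Values of the 5 Hox group 1 and 2 probes on each array, as multiples of the array median on a log2 axis whose range differs by panel. Each point is 1 array, its symbol gives the experiment, lines join arrays of 1 experiment (through the mean log2 value of the 2 r2 arrays of experiment 3), and the dashed line is the array median; hoxb1a is above it on all r4 arrays and below it on all r2 arrays.

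Normal r2 and normal r4 were unsorted sections around a segment that lacks Hoxb1a and around the one that has it. In the comparison of these sections, hoxb1a was lower in r2. Its log2 difference was -1.91 ± 0.32 (SE), a 3.75-fold lower measured value. The adjusted p was 0.0285 by limma with Benjamini-Hochberg adjustment over all 16227 probes tested. Experiment 1, whose normal r4 value of hoxb1a was the highest, is in this difference on the r4 side only, as it held no r2 sample. The 3.75-fold and the folds below are ratios of measured values. How much of the dim r2 value of hoxb1a is background is not known, so they do not estimate the change in transcript. Within experiments the log2 difference was -1.64 in experiment 2 and -1.67 and -1.72 in experiment 3, so it was of like size on all 3 r2 arrays. Both values of experiment 3 rest on the same normal r4 array. In the same fit with the 2 r2 samples of experiment 3 averaged, hoxb1a did not pass (limma). With the experiment as a replicate block the difference was -1.60 ± 0.16 (SE), 3.03-fold, with an adjusted p of 0.00137 (limma). Without the block, leaving out any 1 of the 6 arrays of these groups took the adjusted p above 0.05 (limma, 0.0628 to 0.178), while with the block all 9 fits that left out 1 array kept the call (limma, adjusted p 0.000333 to 0.0263). With the block, leaving out either array of experiment 1 gives the same fit, that of experiments 2 and 3 only, so the 9 are not all separate checks. The p-values without the block measure the spread between these pooled samples. Those with it measure the spread left after differences between experiments are removed. The number of arrays limits the precision of both.

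The comparison of Hoxb1a-deficient with normal r4 addresses which transcripts respond to loss of Hoxb1a. It sets injected embryos against untreated ones, so loss of Hoxb1a and other effects of the injection cannot be told apart. The targeted gene hoxb1a did not pass the test in this comparison. The log2 difference of hoxb1a was -0.30 ± 0.32 (SE), with a 95% confidence interval of -1.02 to 0.41 and an adjusted p of 1 (limma). Within experiments it was 0.07, -0.67 and -0.31 in experiments 1, 2 and 3, so Hoxb1a-deficient r4 was lower in 2 of 3 experiments. With the replicate block the interval was -0.65 to 0.04 and the adjusted p 0.887 (limma). That interval spans a measured value of 0.639 to 1.03 times that of normal r4, with an unknown part of background in both. The probe measures transcript and not protein, so these values are no measure of how much Hoxb1a protein was made. In bulk tissue, fewer cells of a type and less RNA per cell cannot be told apart.

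Hoxb1a-deficient r4 and normal r2, which the study used as its sources of Hoxb1a-deficient tissue, were also set against each other. The hoxb1a transcript was higher in Hoxb1a-deficient r4 on every array, since its lowest value, 1.51, lay above the highest r2 value, 0.774. The measured log2 difference was 1.60 ± 0.32 (SE), 3.04-fold, with experiment 1 on the r4 side only. Its 95% confidence interval was 0.89 to 2.32, and its adjusted p of 0.0770 (limma) did not pass. With the replicate block the difference was 1.30 ± 0.16 (SE), 2.46-fold, with a 95% confidence interval of 0.93 to 1.66. It passed with an adjusted p of 0.00425 (limma). Within experiments the log2 difference was 0.97 in experiment 2 and 1.36 and 1.41 in experiment 3. All 9 fits with the block that left out 1 array made this call (limma, adjusted p 0.00228 to 0.0378), and 0 of 9 without the block did. Here too, the fits with the block that left out either array of experiment 1 are the same fit.

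Markers of tissue beside the hindbrain and of neighbouring segments differed between the same groups. Otic vesicle markers, 16 of 21 of which were on the array, summed to 78.3 to 267.5 in normal r4, 83.7 to 195 in Hoxb1a-deficient r4 and 20.0 to 22.1 in r2, and 8 of the 16 were lower in r2 than in normal r4 (limma). Skin and periderm markers, 16 of 23 on the array, summed to 83.9 to 201, 105 to 207 and 35.1 to 65.1 in the same order. Lower in r2 were 4 of 16, cldnj, cldn7b, cldn3c and epcam, or 5 with the replicate block. Of these, cldn7b and epcam also stand in the otic vesicle list, and the keratin genes of the skin list did not pass with or without the block. Markers of rhombomeres 3, 5 and 6, 5 of 8 on the array, summed to 130 to 187, 124 to 187 and 31.2 to 58.5, and 3 of 5 were lower in r2. The brightest of them was egr2b, with means of 129, 135 and 41.6 in the same order. Of all probes, 0.579% passed between r2 and normal r4 without the block and 1.7% with it. In the comparison of Hoxb1a-deficient with normal r4, 0 genes of these 3 lists passed. As 0% of all probes passed there, this count does not measure whether the r4 samples held alike amounts of these tissues. The part of these tissues in the r2 differences of the Hox probes was not tested.

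The group 2 gene hoxa2b, which specifies second arch neural crest and is the Hox gene that reaches rhombomere 2, was far above the median on all 9 arrays. It was measured at 30.2, 19.9 and 12.2 in normal r4 in experiments 1, 2 and 3, and at 26.4, 13.3 and 6.38 in the Hoxb1a-deficient tissue. Its r2 values were 12.8 in experiment 2 and 5.86 and 7.23 in experiment 3. All 3 groups overlapped, and within each tissue the array of experiment 3 was lower than that of experiment 2. Its rank within the array was the 87.3 to 92.3 percentile in normal r4, the 82.2 to 90.7 percentile in Hoxb1a-deficient r4 and the 78.4 to 88.8 percentile in r2.

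Set within experiments, hoxa2b in Hoxb1a-deficient r4 was below normal r4 each time, by log2 differences of -0.19, -0.58 and -0.94 in experiments 1, 2 and 3. Such a run of 3 lower values was met by 12.5% of all probes in this comparison. Over all arrays the difference was -0.57 ± 0.51 (SE), with a 95% confidence interval of -1.71 to 0.56 and an adjusted p of 1 (limma). With the replicate block its standard error fell to 0.16 and the interval was -0.93 to -0.21, but the adjusted p over all probes was 0.730 (limma) and it did not pass. The mean of hoxa2b was 20.8 ± 9.02 (SD, n = 3) for normal r4 and 15.4 ± 10.2 (SD, n = 3) for Hoxb1a-deficient r4.

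Against r2 the values of hoxa2b in Hoxb1a-deficient r4 were close within experiments: the log2 difference was 0.05 in experiment 2 and 0.12 and -0.18 in experiment 3. With the replicate block it was 0.12 ± 0.17 (SE), with a 95% confidence interval of -0.27 to 0.50 and an adjusted p of 0.827 (limma). Without the block the difference was 0.68 ± 0.51 (SE). Experiment 1, whose hoxa2b values were the highest, is in that mean on the r4 side only, as it held no r2 sample. Normal r2 was below normal r4 in each pair of arrays of 1 experiment, by -0.64 in experiment 2 and -1.06 and -0.76 in experiment 3. That difference was -1.25 ± 0.51 (SE) with an adjusted p of 0.960 without the block and -0.69 ± 0.17 (SE) with an adjusted p of 0.1 with it (limma), so it did not pass in either. The mean of hoxa2b in r2 was 8.62 ± 3.67 (SD, n = 3).

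**Figure D2:**
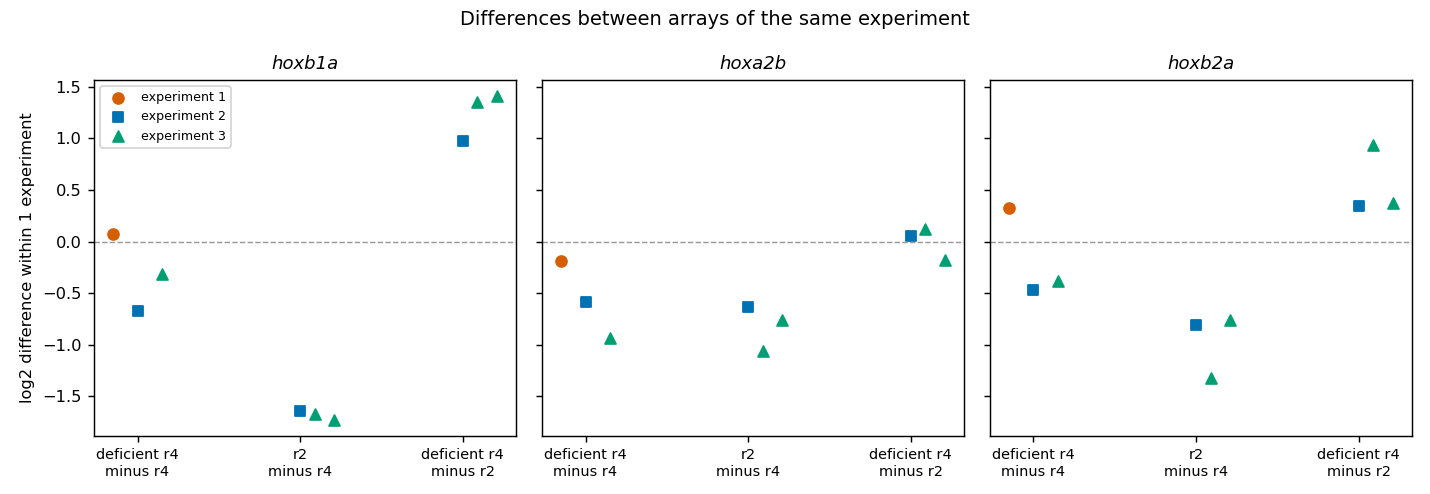
Log2 differences of hoxb1a, hoxa2b and hoxb2a between arrays of the same experiment, with 1 point per pair of arrays and the symbol giving the experiment; experiment 3 has 2 points against r2 because it held 2 r2 samples. For hoxb1a, Hoxb1a-deficient r4 lies 0.97 to 1.41 above r2, and for hoxa2b it lies between -0.18 and 0.12.

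The other group 2 gene, hoxb2a, lies next to hoxb1a in the genome, with 0 protein-coding genes between them in the zebrafish gene table used for names, and belongs to the same Hox cluster. It was measured at 2.62, 1.90 and 1.48 in normal r4 in experiments 1, 2 and 3, and at 3.28, 1.38 and 1.13 in the Hoxb1a-deficient tissue. Its r2 values were 1.08 in experiment 2 and 0.591 and 0.873 in experiment 3. The r2 values lay below every r4 value of either kind, and 1 of the 3 r2 arrays had it above the median. Its rank within the array was the 59.8 to 66.3 percentile in normal r4, the 54.4 to 67.6 percentile in Hoxb1a-deficient r4 and the 15.7 to 53.5 percentile in r2.

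Although its r2 values were apart from both r4 groups, hoxb2a passed no test. Normal r2 differed from normal r4 by a log2 difference of -1.24 ± 0.41 (SE), with an adjusted p of 0.624, and by -0.83 ± 0.21 (SE), with an adjusted p of 0.116, with the replicate block (limma). Within experiments it was -0.81 in experiment 2 and -1.32 and -0.76 in experiment 3. Hoxb1a-deficient r4 was above r2 by 1.06 ± 0.41 (SE), adjusted p 0.855, or with the block by 0.65 ± 0.21 (SE), adjusted p 0.182 (limma), and within experiments by 0.35, 0.94 and 0.37. Against normal r4, Hoxb1a-deficient r4 differed by -0.18 ± 0.41 (SE), adjusted p 1 (limma), with a 95% confidence interval of -1.07 to 0.72, and the difference within experiments was 0.33, -0.46 and -0.39. The group mean was 2.00 ± 0.579 (SD, n = 3) for normal r4, 1.93 ± 1.18 (SD, n = 3) for Hoxb1a-deficient r4 and 0.849 ± 0.246 (SD, n = 3) for r2.

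The remaining group 1 genes were dim throughout. In normal r4, hoxa1a was measured at 0.399, 0.739 and 0.660 in experiments 1, 2 and 3, in Hoxb1a-deficient r4 at 0.436, 0.718 and 0.553, and in r2 at 0.809, 0.747 and 0.571. All 9 values lay below the array median, at percentiles of 5.90 to 38.4, and the 3 groups overlapped. Its log2 difference was 0.28 ± 0.29 (SE) for r2 minus normal r4, -0.06 ± 0.29 (SE) for Hoxb1a-deficient minus normal r4 and -0.33 ± 0.29 (SE) for Hoxb1a-deficient r4 minus r2, and none passed.

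In normal r4, hoxc1a was measured at 0.446, 0.772 and 0.602 in experiments 1, 2 and 3, in Hoxb1a-deficient r4 at 0.573, 0.672 and 0.582, and in r2 at 0.685, 0.491 and 0.536. It too lay below the median on all 9 arrays, at percentiles of 1.06 to 33.3, and its groups overlapped. Its log2 difference was -0.07 ± 0.25 (SE) for r2 minus normal r4, 0.04 ± 0.25 (SE) for Hoxb1a-deficient minus normal r4 and 0.11 ± 0.25 (SE) for Hoxb1a-deficient r4 minus r2, and none passed. For values this far down the array, background and transcript cannot be told apart here, and the same holds for hoxb1a in r2.

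**Figure D3:**
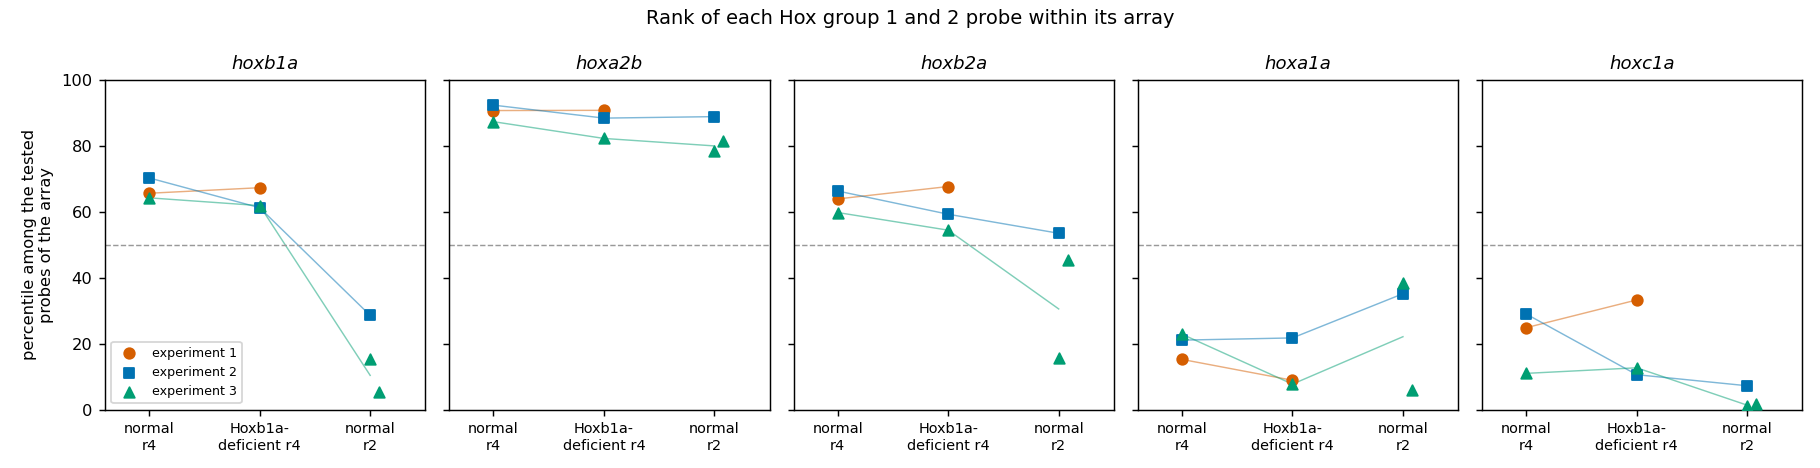
Rank of each Hox group 1 and 2 probe among the tested probes of its array, in percent, by tissue and experiment, with lines as in the plot of values by array and the dashed line at the 50th percentile. The hoxa2b probe stays above the 78.4 percentile on all arrays, hoxb1a lies between 5.43 and 28.6 in r2, and hoxa1a and hoxc1a stay below 38.4 on all arrays.

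Counted over the 5 genes, 1 of 5 was lower in r2 than in normal r4 and 0 were higher, where 0.579% of all probes passed in this comparison, and with the replicate block the count was again 1 of 5 against 1.7% of all probes. Between Hoxb1a-deficient r4 and r2 the count was 0 of 5 against 0.555% of probes, and with the block 1 of 5, higher in Hoxb1a-deficient r4, against 2.21%. Between Hoxb1a-deficient and normal r4 it was 0 of 5 where 0% of probes passed, and with the block 0 of 5 against 0.0123%. At an unadjusted p under 0.05 the counts in limma without the block were 0 of 5 between the r4 tissues, with 82 of all 16227 probes, 3 of 5 between r2 and normal r4, with 667, and 2 of 5 between Hoxb1a-deficient r4 and r2, with 769. With the block they were 1 of 5, hoxa2b, with 932 probes, 3 of 5 with 1779, and 2 of 5 with 2466.

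Counted by ranges, hoxb1a and hoxb2a did not overlap between r2 and normal r4, as was the case for 8.76% of all probes, and the same pair did not overlap between Hoxb1a-deficient r4 and r2, as was the case for 10.5%. Between Hoxb1a-deficient and normal r4 all 5 overlapped, where 2.08% of all probes did not. The median log2 difference of the 5 genes was -1.24 for r2 minus normal r4, -0.18 for Hoxb1a-deficient minus normal r4 and 0.68 for Hoxb1a-deficient r4 minus r2, and that of all probes was 0.08, -0.01 and -0.07. The comparisons share arrays, so they are not independent of each other.

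**Figure D4:**
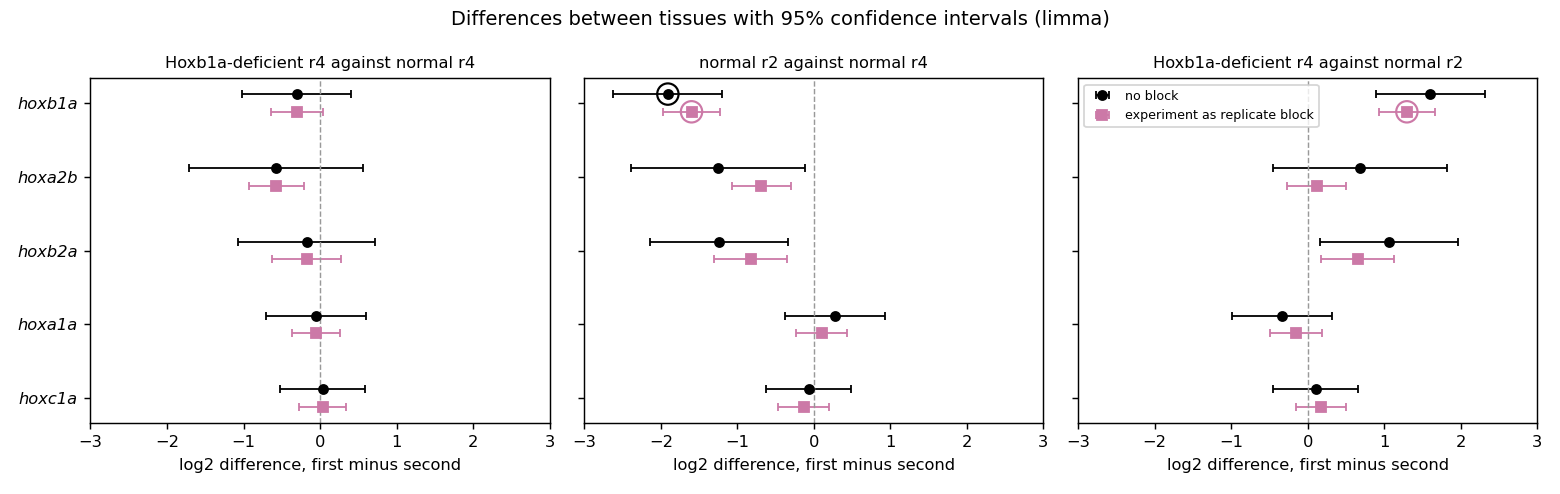
Log2 differences of the 5 probes in each comparison with 95% confidence intervals from limma, without a block (black circles) and with the experiment as a replicate block (pink squares); a ring marks an adjusted p under 0.05 over all probes. Rings appear for hoxb1a between r2 and normal r4 in both fits and between Hoxb1a-deficient r4 and r2 with the block.

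Like most probes of the array, the 5 probes also moved with the experiment. In the fit with the block, the experiment term passed for 5 of 5 (limma F test with Benjamini-Hochberg adjustment), where 71.5% of all probes passed it. The bright probes were lower in the later experiments: hoxa2b by log2 differences of -0.78 in experiment 2 and -1.70 in experiment 3 against experiment 1, hoxb1a by -0.65 and -0.93, and hoxb2a by -0.81 and -1.24. The dim probes were higher, hoxa1a by 0.81 and 0.53 and hoxc1a by 0.54 and 0.20. These opposite signs stand beside the wider spread of all values on the arrays of experiment 1 given above, and a link between them was not tested.

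Ratios of 2 probes on the same array were compared between tissues to see whether the Hox genes moved alike. The log2 ratio of hoxb1a over hoxa2b was -2.75 ± 0.586 (SD, n = 3) in Hoxb1a-deficient r4 and -3.68 ± 0.367 (SD, n = 3) in r2, a difference of 0.92. The groups did not overlap and the exact permutation test, two-sided, gave p = 0.1, the smallest p that 3 against 3 arrays allow, or 0.3 adjusted over the 9 ratio comparisons made. Within experiments the difference in this ratio was 0.92 in experiment 2 and 1.23 and 1.59 in experiment 3. Hence hoxb1a was higher relative to hoxa2b in Hoxb1a-deficient r4 than in r2 on each pair of arrays, in a design that cannot reach p under 0.05.

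The ratio of hoxb1a over hoxb2a was lower in r2 than in normal r4 by a log2 difference of -0.67 (exact permutation test, p = 0.1, adjusted 0.3), and by -0.83, -0.35 and -0.97 within experiments. The ratio of hoxa2b over hoxb2a differed between r2 and normal r4 by -0.01 (exact permutation test, p = 0.9), with 0.17 in experiment 2 and 0.26 and 0.00 in experiment 3. Between Hoxb1a-deficient and normal r4 the ratio of hoxa2b over hoxb2a was lower by -0.40 (exact permutation test, p = 0.2, adjusted 0.3), with -0.52, -0.12 and -0.55 within the 3 experiments. None of the 9 ratio comparisons passed, and with a smallest possible p of 0.1 none could. The test therefore does not show whether the Hox genes moved alike. In r2, hoxb1a was above the array median on 0 of 3 arrays and hoxb2a on 1, so background has an unknown part in their ratios there. The permutation test did not pair arrays by experiment, and experiment 1 held no r2 sample.

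Of the 41 other Hox genes on the array, 12 belonged to groups 3 to 5 and 29 to groups 6 to 13. Only 3 of the 12 and 4 of the 29 had a mean above the array median in at least 1 tissue. Between r2 and normal r4, where 0.579% of all probes passed, 2 of the 12 passed, both lower in r2, and 0 of the 29. They were hoxb3a, a group 3 gene of rhombomeres 5 and 6, with a mean of 16.3 ± 16.1 (SD, n = 3) in normal r4 and 0.667 ± 0.0746 (SD, n = 3) in r2 (log2 difference -4.17 ± 0.76 SE, limma adjusted p 0.0412), and hoxa3a, with 3.63 ± 1.43 and 0.578 ± 0.0814 (log2 difference -2.59 ± 0.29 SE, limma adjusted p 0.00262). Both lay below the array median in r2, so these differences too are of measured values and do not estimate the change in transcript. Neither passed when the r4 tissues were set against each other, with log2 differences of -0.42 ± 0.76 (SE) and 0.27 ± 0.29 (SE). Over all genes of a class, bright or dim, the median log2 difference between r2 and normal r4 was -1.24 for the 5 of groups 1 and 2. It was 0.19 for the 12 of groups 3 to 5 and 0.15 for the 29 of groups 6 to 13. With the replicate block these medians were -0.69, 0.03 and -0.01. Over only the 3, 3 and 4 genes with a mean above the array median in at least 1 tissue, they were -1.25, -2.59 and -0.06 without the block. Of these genes, hoxb1a, hoxb2a, hoxa3a and hoxb3a were above it only in the r4 tissues. The filter itself therefore favours negative medians for groups 1 and 2 and groups 3 to 5. The medians over all genes include the dim ones, which make up most of groups 3 to 5 and of groups 6 to 13. Neither set of medians is a comparison of the classes.

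**Figure D5:**
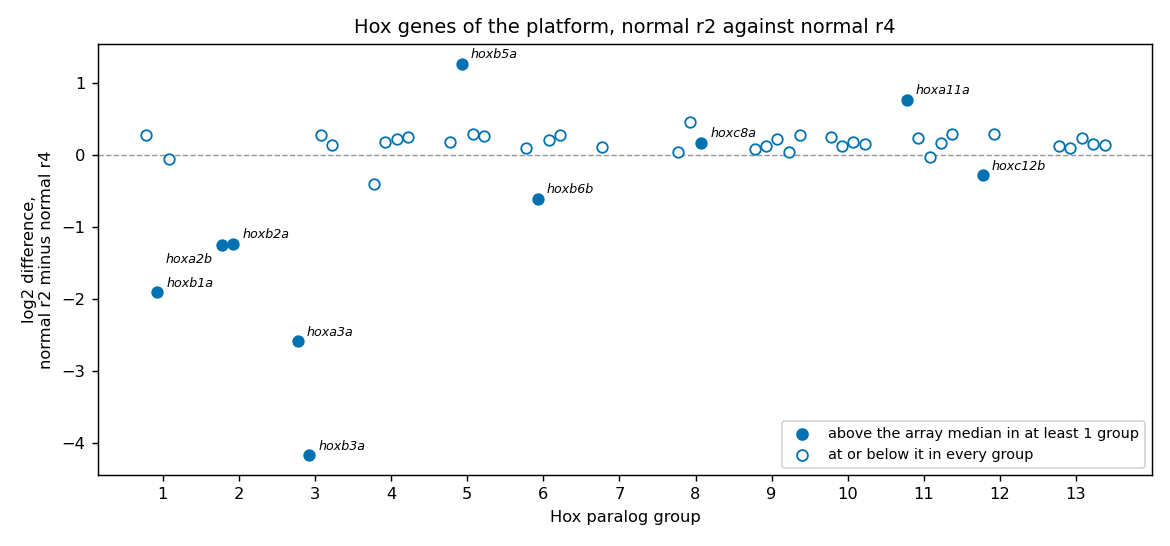
Log2 difference between normal r2 and normal r4 (vertical axis) for every Hox gene of the array by paralog group (horizontal axis), 1 point per gene by its brightest probe; filled points have a mean above the array median in at least 1 tissue and are named. Here hoxb1a lies at -1.91, hoxa2b at -1.25 and hoxb2a at -1.24, and hoxb5a, the highest at 1.26, did not pass the test.

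Hox proteins of these groups bind DNA with Pbx, Meis and Pknox partners, and 13 of 14 listed cofactor genes were on the array. None of the 13 passed in any of the 3 comparisons by limma, with or without the block, where at most 2.21% of all probes passed. The lowest p among them belonged to pbx2 between the r4 tissues (log2 difference -0.33 ± 0.21 SE), to pknox1.1 between r2 and normal r4 (26.7 ± 1.98 against 19.0 ± 3.32, SD, n = 3) and to pbx3b between Hoxb1a-deficient r4 and r2 (log2 difference -1.42 ± 0.60 SE). The median log2 difference of the 13 was -0.13, -0.04 and -0.04 in these comparisons.

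Retinoic acid activates group 1 Hox genes early in the hindbrain, and 15 of 26 listed genes of its synthesis, breakdown and reception were on the array. Between r2 and normal r4, where 0.579% of all probes passed, 1 of the 15 was lower and 0 were higher. It was raraa, a retinoic acid receptor, with 2.34 ± 0.258 (SD, n = 3) in r2 and 6.27 ± 1.58 (SD, n = 3) in normal r4 (log2 difference -1.40 ± 0.24 SE, limma adjusted p 0.0288). In Hoxb1a-deficient r4 raraa was measured at 4.36 ± 0.489 (SD, n = 3), which differed from normal r4 by -0.50 ± 0.24 (SE, limma adjusted p 1) and from r2 by 0.90 ± 0.24 (SE, limma adjusted p 0.287, and 0.0375 with the block). Without the block, 0 of 15 passed in the comparisons of Hoxb1a-deficient r4 with either tissue. Of all probes, 0% passed there against normal r4 and 0.555% against r2.

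Of 14 listed regulators that set up or bound the segments where group 1 and 2 genes are expressed, 6 were on the array. Of all probes, 0.579% passed between r2 and normal r4 and 0.555% between Hoxb1a-deficient r4 and r2. In both comparisons 1 of the 6 passed, egr2b, the factor of rhombomeres 3 and 5 that drives group 2 Hox genes there in the mouse. Its mean was 129 ± 20.4 (SD, n = 3) for normal r4, 135 ± 19.9 (SD, n = 3) for Hoxb1a-deficient r4 and 41.6 ± 14.8 (SD, n = 3) for r2. It was lower in r2 than in normal r4 by a log2 difference of -1.70 ± 0.30 (SE, limma adjusted p 0.0363) and higher in Hoxb1a-deficient r4 than in r2 by 1.76 ± 0.30 (SE, limma adjusted p 0.0303). Its r4 values stood at 81.5% to 99.99% of the highest value on their array, a value that 10 to 194 probes shared. The egr2b probe was at that value on 0 of 9 arrays. Whether this ceiling reduced the size of these differences was not tested. The 5 Hox probes reached at most 23.6% of the highest value.

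A list of genes of rhombomere 4 or downstream of Hoxb1, written with earlier results of these data known, had 16 of 24 members on the array. Between Hoxb1a-deficient and normal r4, 0 of 16 passed, where 0% of all probes did. The lowest p belonged to cxcl12b, a chemokine, with 5.74 ± 1.27 against 2.35 ± 0.447 (SD, n = 3; log2 difference 1.28 ± 0.26 SE, limma adjusted p 1), and to prickle1b, which facial motor neurons need in order to migrate, with 9.21 ± 0.450 against 18.7 ± 4.34 (SD, n = 3; log2 difference -0.99 ± 0.26 SE, limma adjusted p 1). Between r2 and normal r4, 2 of 16 were lower in r2, gata3 and sfrp2, and 2 were higher, fgf8a and cxcl12b. Of all probes, 0.579% passed there, and 1.7% with the replicate block. With the block prickle1b was lower in r2 as well (log2 difference -1.28 ± 0.19 SE, limma adjusted p 0.0107). Between Hoxb1a-deficient r4 and r2, gata3 was higher and fgf8a lower in Hoxb1a-deficient r4, where 0.555% of all probes passed. With the block sfrp2 was higher too (log2 difference 2.24 ± 0.30 SE, limma adjusted p 0.00553), where 2.21% of all probes passed. Of these genes, gata3 also stands in the otic vesicle list and fgf8a in the midbrain, isthmus and rhombomere 1 list.

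Of the lists for tissue other than the hindbrain segments, neural crest and pharyngeal arch bears on group 2, because hoxa2b and hoxb2a are also expressed there. On the array were 20 of its 27 genes, 7 of them at or below the median on all 9 arrays, with summed levels of 37.7 to 41.9 in normal r4, 32.0 to 41.1 in Hoxb1a-deficient r4 and 43.3 to 54.2 in r2. Between r2 and normal r4, 0.579% of all probes passed without the block and 1.7% with it. Of the 20 genes, 1 was higher in r2, gch2, and 1 was lower, dlx5a (log2 difference -2.02 ± 0.33 SE, limma adjusted p 0.0248). The median log2 difference of the 20 was 0.11 without the block and -0.05 with it. The part of crest and arch tissue in the group 2 values was not tested. Midbrain, isthmus and rhombomere 1 markers, 15 of 22 on the array, summed to 253 to 281, 232 to 293 and 250 to 332, and 2 of them, otx2b and fgf8a, were higher in r2 than in normal r4 (limma), or 3 with the block. Muscle and blood markers, 9 of 18 on the array, summed to 6.04 to 7.06, 6.11 to 6.95 and 6.07 to 7.82, with 7 of 9 at or below the median on all arrays.

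The named genes whose log2 values over the 9 arrays ran most like each of the 3 brighter Hox probes were found by Pearson correlation among 3399 other genes above the median in at least 1 tissue. The correlations describe these arrays, which share experiments and tissues, and carry no test. For hoxb1a they were otop1 (r = 0.971, and 0.96 over the 7 arrays of experiments 2 and 3), efhd1 (0.967 and 0.961), gata3 (0.967 and 0.952) and six4b (0.963 and 0.94). Of these, otop1, gata3 and six4b stand in the otic vesicle list. In the same ranking hoxb2a came 24th for hoxb1a, with r = 0.933, and hoxa2b came 121st, with r = 0.818, or 0.66 over experiments 2 and 3.

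For hoxa2b the most alike were elavl3 (r = 0.972 over 9 arrays and 0.947 over 7), an early neuronal RNA-binding protein gene, ssr4 (0.969 and 0.934), cpox (0.954 and 0.896) and ascl1b (0.954 and 0.9), a proneural factor. For hoxb2a they were pane1 (0.952 and 0.881), tbx2b (0.952 and 0.874), pttg1ipa (0.945 and 0.906) and esrp2 (0.944 and 0.856), with hoxb1a 9th and hoxa2b 14th. Of the otic markers most like hoxb1a, gata3 is also in the list of rhombomere 4 and Hoxb1 genes. For hoxa2b, elavl3 and ascl1b stood in the hindbrain neural list. Of the 3400 named genes above the median in at least 1 tissue, 12 were in the otic list and 19 in the neural list. In r2 the means of hoxb1a, otop1, efhd1 and gata3 lay below the median, at 0.644, 0.723, 0.636 and 0.784. These genes entered the ranking through the r4 tissues only, so their likeness in part restates the difference between r4 and r2.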

How the data were processed

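The members and the gene lists were chosen with earlier results of these data known. The authors deposited 1 linear table of 9 arrays, read here as ratios (intensity over an array constant): medians were 1.00 to 1.01, the lowest values 0.277 to 0.542 and the highest 107 to 190. For scanner, image software, background treatment and normalization, the processing is not given in the sources used, and neither detection flags nor scanner files were used. Per the labels' protocols, the isolation kit was PicoPure, and RiboAmp HS amplification gave biotin-labelled RNA. Values scaled per array show change relative to the other probes.

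Of 16399 rows, 6079 had 1 gene symbol, 74 several and 10246 none; 6010 symbols were looked up by Entrez identifier in a gene table of assembly GRCz12tu, used for names and neighbours only, and 1 changed. The 172 spots of 1 accession spotted over 50 times were left out, leaving 16227 probes. A gene with several probes was represented by the brightest. Groups were compared by limma 3.58.1 (R 4.3.3), with lmFit to the 3 group means using 9 arrays and eBayes, two-sided, on log2 of the values with no pseudocount, with Benjamini-Hochberg adjustment over all probes and a threshold of 0.05. Probe ratios were compared with an exact permutation test over arrays (scipy 1.17.1, Python 3.11.15). The fits were tested on simulated data.

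Samples were grouped by their titles, and the design text ties replicate numbers to experiments, so the numbers pair the samples. As a check, each r4 array was centred on its group: across probes, the pairs of normal and Hoxb1a-deficient arrays of 1 experiment had correlations of 0.892, 0.73 and 0.683, against -0.781 to 0.504 between experiments. The experiment as a replicate block was the alternative fit. Other alternatives were pseudocounts of 1 and 16, quantile normalization, a random block, experiments 2 and 3 only, a trended and robust prior, only the groups compared, a filter on dim probes, the r2 samples of experiment 3 averaged, and each array left out.

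Named besides the 5 members were other Hox genes and list genes past the test, at most 4 per comparison by lowest p, or at most 2 by lowest p where none passed, and the 4 genes most alike to each member above the median.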

Additional observations from a re-analysis of the deposited data

How the results depend on the processing

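The count of Hox group 1 and 2 genes past the test between r2 and normal r4 was 1, hoxb1a, and fell to 0 with log2(value + 1) (log2 difference -1.05, limma adjusted p 0.149), with log2(value + 16) (-0.147, 0.576) and with the r2 samples of experiment 3 averaged (-1.84, 0.155). It ranged from 0 to 1 with each array left out, and hoxb1a passed in the 10 other settings of 13. Between Hoxb1a-deficient r4 and r2 the count was 0, and 1 with quantile normalization, with the replicate block, with the block as a random term, with the block and quantile normalization, in experiments 2 and 3 with and without the block, and with a trended and robust prior. It was 0 in all 9 fits that left out 1 array without the block and 1 in all 9 with it, an alternative chosen after seeing the data, so these fits ranged from 0 to 1. With the block, the fits that left out either array of experiment 1 equal the fit on experiments 2 and 3. Between Hoxb1a-deficient and normal r4 the count was 0 in every setting run. The replicate block changed no other call of the 5 genes. Directions turned only for differences near 0: hoxc1a between the r4 tissues (0.04) became -0.0244 with quantile normalization, with and without the block, and -0.124 in experiments 2 and 3, with and without the block, and ranged from -0.166 to 0.229 with 1 array left out. Between r2 and normal r4, hoxc1a became 0.00192 with the r2 samples averaged and ranged from -0.271 to 0.124 with 1 array left out. Between the r4 tissues, hoxa1a ranged from -0.325 to 0.121 and hoxb2a from -0.641 to 0.129 with 1 array left out; with the block, hoxa1a turned to 0.0271 without normal r4 replicate 3 and 0.0154 without Hoxb1a-deficient r4 replicate 3. The causes were not tested. The alternative of another probe per gene was not run, since each gene had 1 probe, and hoxa1a and hoxc1a have no value under the filter on dim probes. Precision is limited by 3 arrays per group, by an experiment 1 without r2, and by the lack of a background level for probes below the array median.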
